A study of Danio rerio with 4 samples.

Results

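The angiopoietin, Tie and apelin signalling genes were examined in hearts of ccm2 m201 mutant and wild-type (WT) zebrafish embryos. The group was defined by gene names: the angiopoietin ligands angpt1, angpt2a and angpt2b, the receptors tie1 and tek, the angiopoietin-like genes angptl4 and angptl7, the apelin ligand apln and the apelin receptors aplnra and aplnrb. Every probe that the platform annotation gives to one of these symbols, or to an older alias, was taken, which found 7 of the 10 genes with 8 probes, out of 14434 named genes on the array. The genes angpt2a, tie1 and aplnra were matched to no probe and were not analysed here.

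Angiopoietins are secreted ligands of the receptor tyrosine kinase Tek (also called Tie2), which sits on endothelial and endocardial cells. In mammals Angpt1 activates the receptor and steadies vessels, whereas Angpt2, released by endothelial cells, can oppose or weakly mimic it depending on context. Apelin is a small secreted peptide that signals through G protein-coupled apelin receptors, which in zebrafish are needed for heart progenitors to reach the heart field. Angiopoietin-like proteins share the domain layout of angiopoietins but do not bind Tek.

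The mutant group was 2 samples of hearts from ccm2 m201 mutant embryos and the WT group was 2 samples of hearts from WT embryos, all dissected by hand at 72 hours post fertilization (hpf) and pooled from several embryos. The Ccm2 protein belongs to the complex named after cerebral cavernous malformations, and the m201 allele is a mutation of its gene; no other allele is named, and the strain is not given. The text description of the mutant samples also mentions overexpression of Bmp2b, which their titles, sources and genotypes do not, and the labels do not settle this. The comparison asked which cardiac genes depend on ccm2.

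Each sample was hybridised to 1 single-colour Agilent array, and the 4 arrays lay on 1 slide. Values below are log2 processed signals after scaling each array on its 75th percentile, and a difference is mutant minus WT on that scale. Well above background were 54.0% to 55.9% of an array's 43803 features, and 0 were saturated. Of 12 tested cardiomyocyte markers, 12 were well above background on all 4 arrays. The brighter ccm2 probe read 5.16 and 4.92 on the mutant arrays, against 5.45 and 5.79 on the WT arrays, and this difference did not pass (limma adjusted p = 0.167). The other ccm2 probe differed by -0.47 and did not pass either (adjusted p = 0.319). Both were dim, with raw median signals of 37 to 64 where the arrays' medians were 34.5 to 35.0. Separate clutches are not stated for the pools, so the p-values speak only to the spread among these samples, and the number of arrays limits the precision of each value.

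Of the 7 member genes, angpt1, angpt2b and tek rose in mutant hearts and angptl7 and apln fell, while angptl4 and aplnrb did not pass the test (limma, Benjamini-Hochberg adjusted p under 0.05 over all 26824 tested probes). All 7 were tested. Across the array, 8.10% of the 11526 tested genes were called higher, 9.03% lower and 17.1% in either direction. The mutant arrays lay wholly above the WT arrays for 4 members and wholly below them for 2, where 67.8% of all tested genes showed such separation in one direction or the other (32.6% above and 35.2% below). The members' median difference was 1.07, beside -0.04 over all tested genes. The members ranged from -6.85 for angptl7 to at least 3.77 for angpt2b, whose WT signals were under the background limit. The members were chosen with earlier results of these data known. Setting them beside all tested genes is thus a description and no test of the family. With 1 mutant array left out, the lone mutant array is assumed to vary like the WT pair, and limma called 0 genes of any kind, although 3677 genes (without mutant sample 1) and 3782 genes (without mutant sample 2) had an unadjusted p under 0.05. It called 567 genes without WT sample 1 and 237 without WT sample 2, where the spread comes from the mutant pair. A call lost in these smaller fits does not show that the value depends on the array left out, and the members' differences are given with each. The 934 higher and 1041 lower genes became 1139 and 817 with median scaling and 1295 and 770 with the unscaled values, so directions are relative to the scaling used.

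**Figure D1:**
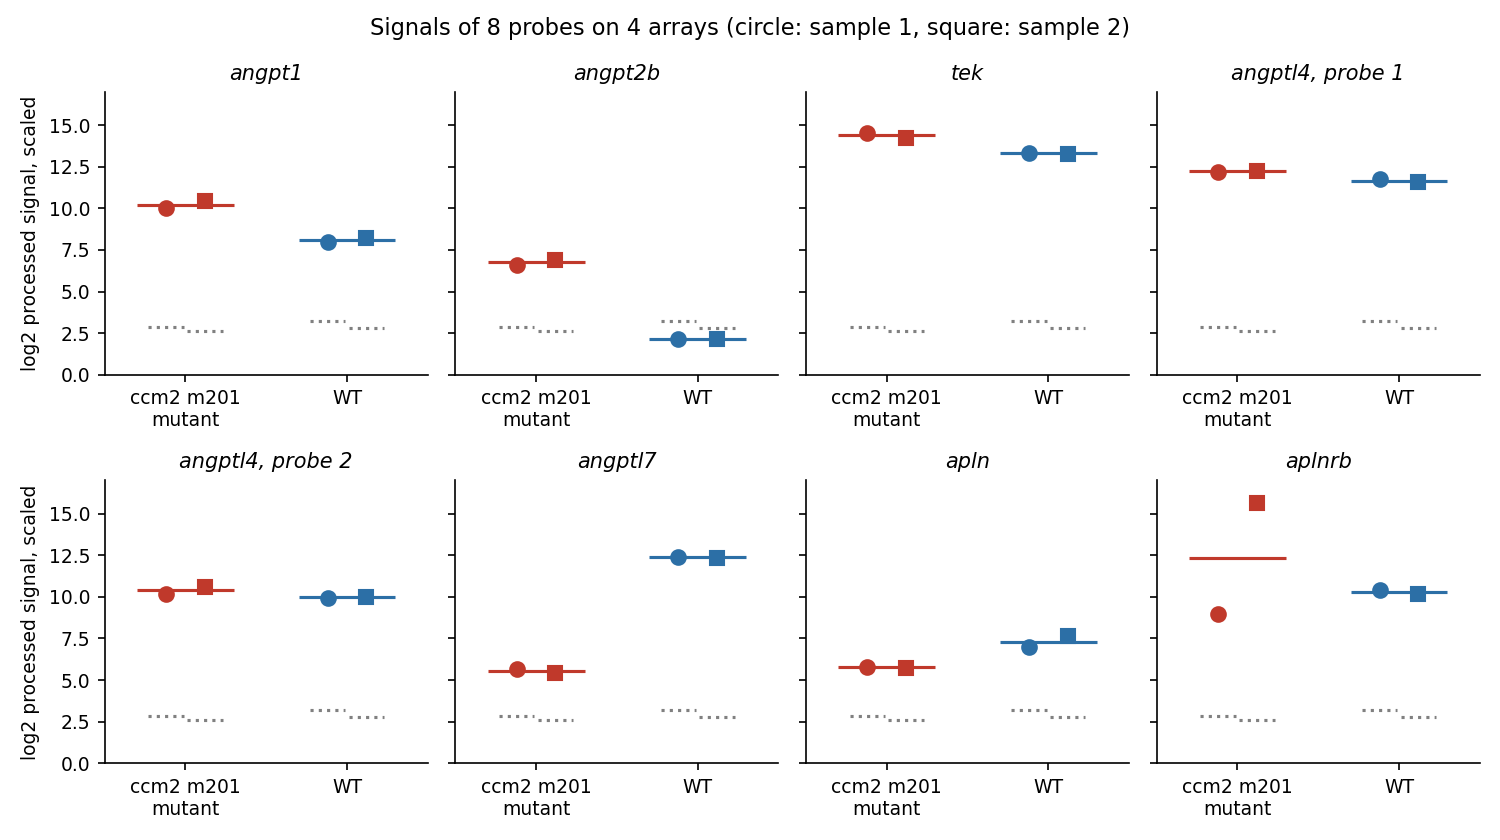
Scaled log2 processed signal of each member probe on the 4 arrays, with ccm2 m201 mutants on the left and WT on the right of each panel (circles are sample 1, squares sample 2, bars group means). Dotted lines mark the lowest signal taken as well above background on each array. angpt2b lies under that line on both WT arrays, angptl7 lies 6.85 lower in mutants than in WT, and the circle and square of aplnrb in mutants are 6.66 apart.

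The ligand gene angpt1, which encodes the activating ligand of Tek, had processed signals of 1060 and 1550 on the mutant arrays, against 228 and 281 on the WT arrays. Both mutant arrays were above both WT arrays, and the groups stayed apart after scaling. angpt1 averaged 10.22 ± 0.30 in mutant hearts and 8.09 ± 0.14 in WT hearts (SD, n = 2 each), a rise of 2.12 ± 0.24 (SE) or 4.36-fold, with a 95% interval of 2.77-fold to 6.87-fold (limma adjusted p = 0.0168). Whichever of the 4 arrays was left out, the difference stayed between 1.91 and 2.34.

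The ligand gene angpt2b encodes a zebrafish counterpart of Angpt2. It read 6.62 and 6.89 on the mutant arrays, against 2.12 and 2.14 on the WT arrays, where it was not well above background. In unscaled processed signal this is 102 and 133 in mutant hearts and 3.90 and 4.24 in WT hearts. Because the WT side has only an upper limit, the rise is given as a bound. Taking the lowest signal well above background on each WT array, angpt2b was at least 13.6-fold higher in mutants. The measured means were 6.76 ± 0.19 in mutants and 2.13 ± 0.01 in WT (SD, n = 2 each, limma adjusted p = 0.00720). That WT SD is a spread of signals under the background limit, so the adjusted p is not a test of the bound. With 1 array left out, whichever it was, the measured difference stayed between 4.49 and 4.76. An alternative started from the raw median signal, with limma's normexp background correction, an added offset of 50 and quantile normalization across arrays. There the difference was 1.43. The offset compresses dim probes by construction, but the part of each step was not tested.

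Since both ligand genes rose, the ratio of their probes was set within each array. The log2 signal of angpt2b minus that of angpt1 was -3.38 and -3.54 on the mutant arrays, against -5.87 and -6.05 on the WT arrays. The WT values rest on angpt2b signals under the background limit, so the difference in this ratio is given as at least 1.64 on the log2 scale, with angpt2b placed at the lowest signal well above background on the WT arrays (2.5 as measured, and 2.41 to 2.59 with 1 array left out). From the raw median signal, with the same background correction, offset and quantile normalization, the sign turned (-0.47). The offset compresses a dim probe by construction, but the part of each step in this turn was not tested. The raw median signals of angpt2b were 115.5 and 147 on the mutant arrays and 26.5 and 24.5 on the WT arrays. Those of angpt1 were 1222.5 and 1800, against 290 and 353. With angpt2b placed at the same limit, the angpt2b to tek ratio was higher in mutants by at least 2.70 (3.56 as measured). It was 0.22 from the raw median signal with those 3 steps. With 4 arrays an exact two-sided permutation test cannot give less than p = 0.333, so neither ratio has a test that could pass.

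tek, the receptor of the angiopoietins and itself an endothelial marker, read 14.54 and 14.23 on the mutant arrays, against 13.36 and 13.28 on the WT arrays. The groups did not overlap, and the rise was 1.07 ± 0.20 (SE), or 2.09-fold with a 95% interval of 1.42-fold to 3.08-fold (limma adjusted p = 0.0426). The adjusted p was 0.0938 with no filter on dim probes. With 1 array left out, whichever it was, the difference stayed between 0.91 and 1.22. Of the endothelial and endocardial markers, 12 of 26 rose and 0 fell, which left 14 that missed the threshold. Their median difference was 0.97, or 0.77 with dim genes at their bound. lyve1a, an endothelial hyaluronan receptor gene, rose by 3.69 ± 0.20 (SE) and aqp8a.1, a water channel gene, by 3.49. The differences of 5 markers were below 0, none past the test, and the lowest were nfatc1, an endocardial transcription factor gene, at -0.94 and dll4, a Notch ligand gene, at -0.77, both named after their values were seen. The markers' summed signal was 108927 to 125974 on the mutant arrays and 51613 to 52229 on the WT arrays. This sum leans on the brightest genes and is not an even measure of the list. aqp8a.1, the brightest marker on the mutant arrays, read 15.36 and 15.12 there, against 11.83 and 11.68 on the WT arrays. In hearts measured whole, cell number and RNA per cell cannot be told apart, and each value is relative to the rest of its array. The cause of the markers' difference was not tested. Scaling each array on the median of these markers was an alternative chosen after seeing the data. It used the markers' median signal on each array, which is not their median difference of 0.97. The shift was smaller than 0.97, as the median difference of all tested genes went from -0.04 to -0.63. Differences under this scaling are thus not what remains beyond the markers' median difference. With this scaling, tek differed by 0.48 and did not pass (limma adjusted p = 0.152). angpt1, with a difference of 1.54, passed (adjusted p = 0.0428), as did angpt2b (adjusted p = 0.00615). This scaling lowers the difference of every gene by the same amount and does not show which cells held the RNA.

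**Figure D2:**
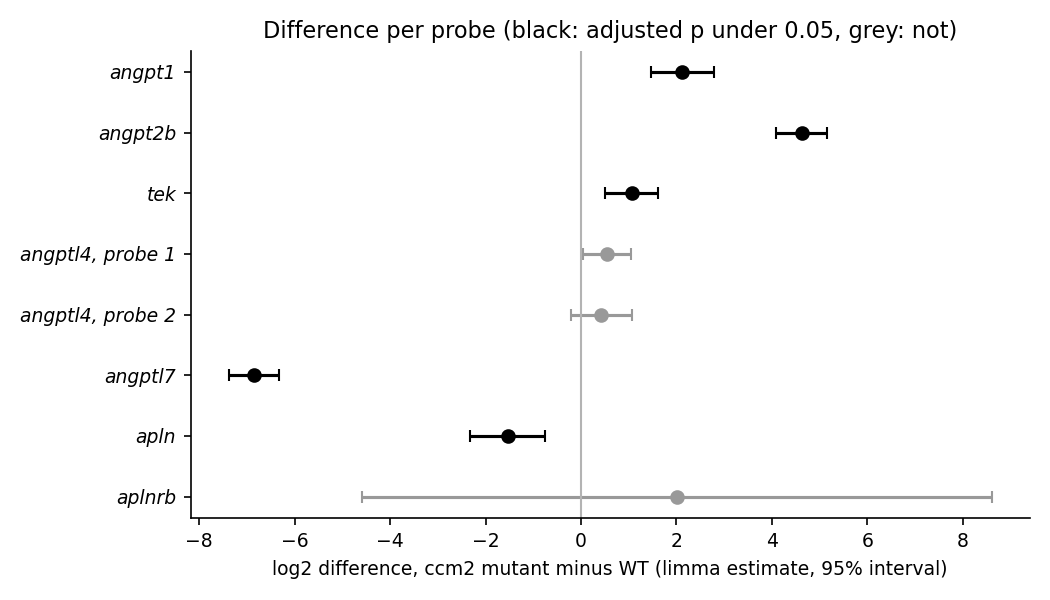
Difference between ccm2 mutant and WT hearts for each member probe on the log2 scale, as limma's estimate with its 95% interval. The 5 black probes passed the test, and the interval of aplnrb runs from -4.60 to 8.61. The angpt2b point rests on WT signals not well above background.

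Further genes of the Tek pathway were taken from a list of binding partners and signalling proteins, of which 12 of 21 were tested. Of these, 0 passed limma's test in either direction and 5 had an unadjusted p under 0.05. Across the array 4110 of the 11526 tested genes had such an unadjusted p. In the list 9 differences were above 0 and 3 below, with a median of 0.51 (0.46 with dim genes at their bound). pik3cb, which encodes a PI3-kinase catalytic subunit, had 5.94 and 5.54 on the mutant arrays and 4.21 and 4.65 on the WT arrays (limma adjusted p = 0.0515). foxo1a, which encodes a Forkhead factor that the PI3-kinase and Akt pathway keeps out of the nucleus, read 7.35 and 5.31 on the mutant arrays, against 3.47 and 3.25 on the WT arrays. Its mutant arrays were far apart, and the difference of 2.97 ± 0.75 (SE) did not pass (adjusted p = 0.0760).

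The angiopoietin-like gene angptl7, known in humans from the cornea, had the widest difference among the members. It read 5.64 and 5.39 on the mutant arrays, against 12.42 and 12.32 on the WT arrays. Unscaled, its processed signal was 51.6 and 47.2 in mutant hearts and 4900 and 4920 in WT hearts, and all 4 values were well above background. angptl7 fell by 6.85 on the log2 scale, with an SE of 0.19, which is 116-fold lower in mutants with a 95% interval of 80.04-fold to 167-fold (limma adjusted p = 0.00720). With 1 array left out, whichever it was, the difference stayed between -6.98 and -6.73.

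Some markers of other tissues were also lower in mutant hearts. Among the tested genes of smooth muscle and the outflow tract, 4 of 9 fell and 0 rose, with a median of -1.98 (-1.22 with dim genes at their bound) and a summed signal of 13122 to 14555 in mutants and 27735 to 29424 in WT. The largest fall was that of fbln5, which encodes an elastic fibre protein, at -3.50. Its signal was 13.23 and 13.48 on the WT arrays, and the sum leans on such bright genes. The 5 genes that missed the threshold were acta2 (-0.13), myh11a (-0.27), notch3 (-0.54), cnn1b (-2.50) and pdgfrb (0.17). These were named after their values were seen, so the fall was not shared by all markers of this list. Of 10 listed cartilage and pharynx markers 3 were tested, and 1 of these was well above background on every array. Of the 3, 2 fell and the median was -4.87. Their summed signal was 99.8 to 101 in mutants and 2830 to 2947 in WT. The median is the value of matn4, a cartilage matrix gene and the brightest of the 3, and the sum leans on it. matn4 read 6.45 and 6.44 on the mutant arrays, against 11.28 and 11.35 on the WT arrays. A list for cornea, lens, retina and nervous system held 13 markers, of which 6 were tested. The lens and photoreceptor genes of the list were not among those tested. Of the 6, 3 fell and 0 rose, with a median of -0.74. Placing genes under the background limit at their bound gave -0.41. The 3 that fell, elavl3, syt1a and snap25a, are neuronal genes. Of these, elavl3 was well above background on only 1 WT array and on 0 mutant arrays. With its dim mutant signals at the background limit it was 1.41-fold lower in mutants. The epithelial keratin genes of the list, krt5 at 0.85 and krt4 at 0.0053, did not pass and were named after their values were seen. The part of these tissues in the angptl7 difference was not tested.

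angptl4 encodes a secreted protein that in mammals inhibits lipoprotein lipase and responds to fasting and low oxygen. Its brighter probe read 12.19 and 12.25 on the mutant arrays, against 11.78 and 11.57 on the WT arrays, and its other probe read 10.17 and 10.61 on the mutant arrays, against 9.95 and 9.98 on the WT arrays. For both probes the mutant arrays were above the WT arrays. The differences of 0.55 ± 0.18 (SE) and 0.42 ± 0.23 (SE) did not pass (limma adjusted p = 0.128 and 0.286), and the 95% interval of the brighter probe ran from 1.03-fold to 2.07-fold. Its adjusted p was 0.0359 from the raw median signal and 0.0383 with a trended, robust variance model, and its sign turned (-0.042) with scaling on the endothelial markers.

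Relatives of the angiopoietin-like family and lipase genes moved both ways, with 1 of 8 tested (13 listed) higher, 4 lower, 3 not past the test and a median of -0.63. angptl6 rose by 2.78 ± 0.32 (SE), with 7.51 and 8.28 on the mutant arrays and 5.03 and 5.20 on the WT arrays (limma adjusted p = 0.0180). angptl2a, whose mutant signals lay under the background limit, was lower by at least 8.42-fold. It read 0.63 and 0.37 on the mutant arrays and 6.04 and 5.56 on the WT arrays. The limma adjusted p of 0.00729 belongs to the measured difference of -5.30 and is not a test of the bound. angptl5 fell by 1.87, and its second probe gave -2.37. lpla, the gene of lipoprotein lipase, fell to 8.83 and 8.73 on the mutant arrays, against 10.65 and 10.42 on the WT arrays, a difference of -1.76 ± 0.19 (SE, adjusted p = 0.0157).

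apln, the apelin ligand gene, read 5.80 and 5.75 on the mutant arrays, against 6.99 and 7.63 on the WT arrays. Both mutant arrays were below both WT arrays, which differed from each other by more than the mutant arrays did. The fall was 1.54 on the log2 scale, with an SE of 0.28, or 2.91-fold lower in mutants with a 95% interval of 1.69-fold to 5.0-fold (limma adjusted p = 0.0411). The call did not hold under several settings that used all 4 arrays. The limma adjusted p was 0.0633 with median scaling, 0.0656 unscaled and 0.0718 with no filter. With 1 array left out, whichever it was, the difference stayed between -1.86 and -1.22. From the raw median signal with background correction, an offset and quantile normalization the difference was -0.93 and passed (limma adjusted p = 0.0387).

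aplnrb encodes an apelin receptor, and its 2 mutant arrays differed widely. It read 8.98 on mutant sample 1 and 15.65 on mutant sample 2, against 10.42 and 10.20 on the WT arrays. The gap of 6.66 between the mutant arrays was exceeded by 9 of 26824 tested probes, whose median gap was 0.31. The difference over all 4 arrays was 2.00 ± 2.37 (SE), with a 95% interval from -4.60 to 8.61, and did not pass (limma adjusted p = 0.616). Without mutant sample 2 it was -1.33 and without mutant sample 1 it was 5.34. The direction for this receptor thus depends on which mutant array is used.

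The deposited raw table allows the aplnrb spot to be read in another way. On mutant sample 2 the processed signal was 57600 and the raw median signal 25480, a ratio of 2.26. On mutant sample 1 and the WT arrays that ratio was 0.99, 1.09 and 1.16. Among 7615 features of mutant sample 2 with a raw median signal above 500, the median ratio was 0.96 and 7 features, aplnrb included, had a ratio at least as high as that of aplnrb. The raw median signal itself was 528 on mutant sample 1, 1129 on WT sample 1 and 977 on WT sample 2, so mutant sample 2 stands apart on both scales. The log2 signal of apln minus that of aplnrb was accordingly -3.18 and -9.90 on the mutant arrays, against -3.43 and -2.56 on the WT arrays (exact two-sided permutation p = 0.667, with 0.333 the smallest possible), and without mutant sample 2 the difference in this ratio was -0.18.

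**Figure D3:**
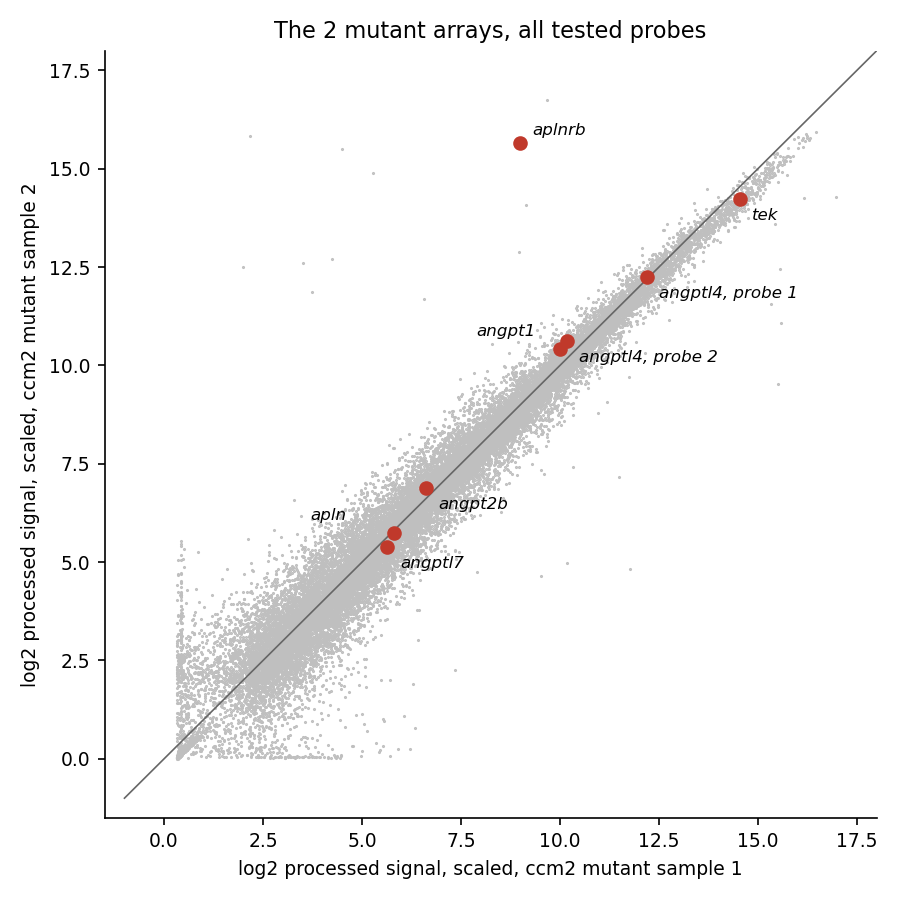
Scaled log2 processed signal on mutant sample 1 (horizontal) against mutant sample 2 (vertical) for all tested probes in grey, with member probes in red. The line marks equal signal. 7 of the 8 member probes lie close to the line and aplnrb lies 6.66 above it.

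Other genes of the apelin pathway came from a list of ligands, processing enzymes and signalling proteins, of which 10 of 18 were tested, 2 rose and 0 fell, with a median of 0.49. mmel1, which encodes a membrane metallopeptidase related to neprilysin, rose by 2.27 ± 0.33 (SE), with 13.00 and 12.41 on the mutant arrays and 10.72 and 10.16 on the WT arrays (limma adjusted p = 0.0275). furina, which encodes a Furin proprotein convertase, rose by 1.18 ± 0.17 (SE), with 8.78 and 8.78 on the mutant arrays and 7.53 and 7.67 on the WT arrays (adjusted p = 0.0273). The gene apela, which encodes the second ligand of apelin receptors, was matched to no probe and was not analysed here. A probe for aplnr2, a further apelin receptor gene that is not a member and was named after its values were seen, was not well above background on any of the 4 arrays.

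Because apelin and angptl4 are known to respond to low oxygen, genes of the hypoxia and lipid responses were counted as well. Of 16 tested, 2 rose, 4 fell and 10 did not pass, with a median of -0.28. pfkfb4b, a glycolysis regulator gene, rose by 1.23 ± 0.19 (SE, limma adjusted p = 0.0310), and its other probes gave 1.42 and 1.32. hif1ab, a hypoxia-inducible factor gene, rose by 0.97 ± 0.18 (SE), whereas its duplicate hif1aa fell by 2.32 on the log2 scale and egln3, an oxygen-sensor gene that hypoxia induces, fell by 1.75. slc2a1a, a glucose transporter gene with mutant signals under the background limit, was lower by at least 1.48-fold. The list thus held genes that moved with apln and genes that moved against it.

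The remaining marker lists give marker signals of the dissected hearts beside the members, and cell content itself was not measured. Of 15 tested leukocyte markers 10 rose and 0 fell, with a median of 1.97 and a summed signal of 7261 to 7295 in mutants and 2044 to 2431 in WT. Of 11 red blood cell markers 1 rose and 8 fell, with a median of -3.04 and a summed signal of 11553 to 15083 in mutants and 90878 to 103417 in WT. Of 12 cardiomyocyte markers 0 rose and 1 fell (median -0.14), with summed signals that overlapped between the groups, at 199558 to 262012 in mutants and 232486 to 255180 in WT. Of 10 epicardium and fibroblast markers 2 rose and 1 fell (median -0.14). Of 9 liver and yolk markers 2 rose and 0 fell, with a median of 2.44 that was 1.63 with dim genes at their bound. Their summed signals were 12123 to 13472 in mutants and 4912 to 34214 in WT, so the WT arrays were far apart. The median is the value of fgg, a fibrinogen gene named after its values were seen. It read 10.35 and 9.99 on the mutant arrays, against 9.85 and 5.61 on the WT arrays. The part of leukocytes or red blood cells in the member differences was not tested.

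**Figure D4:**
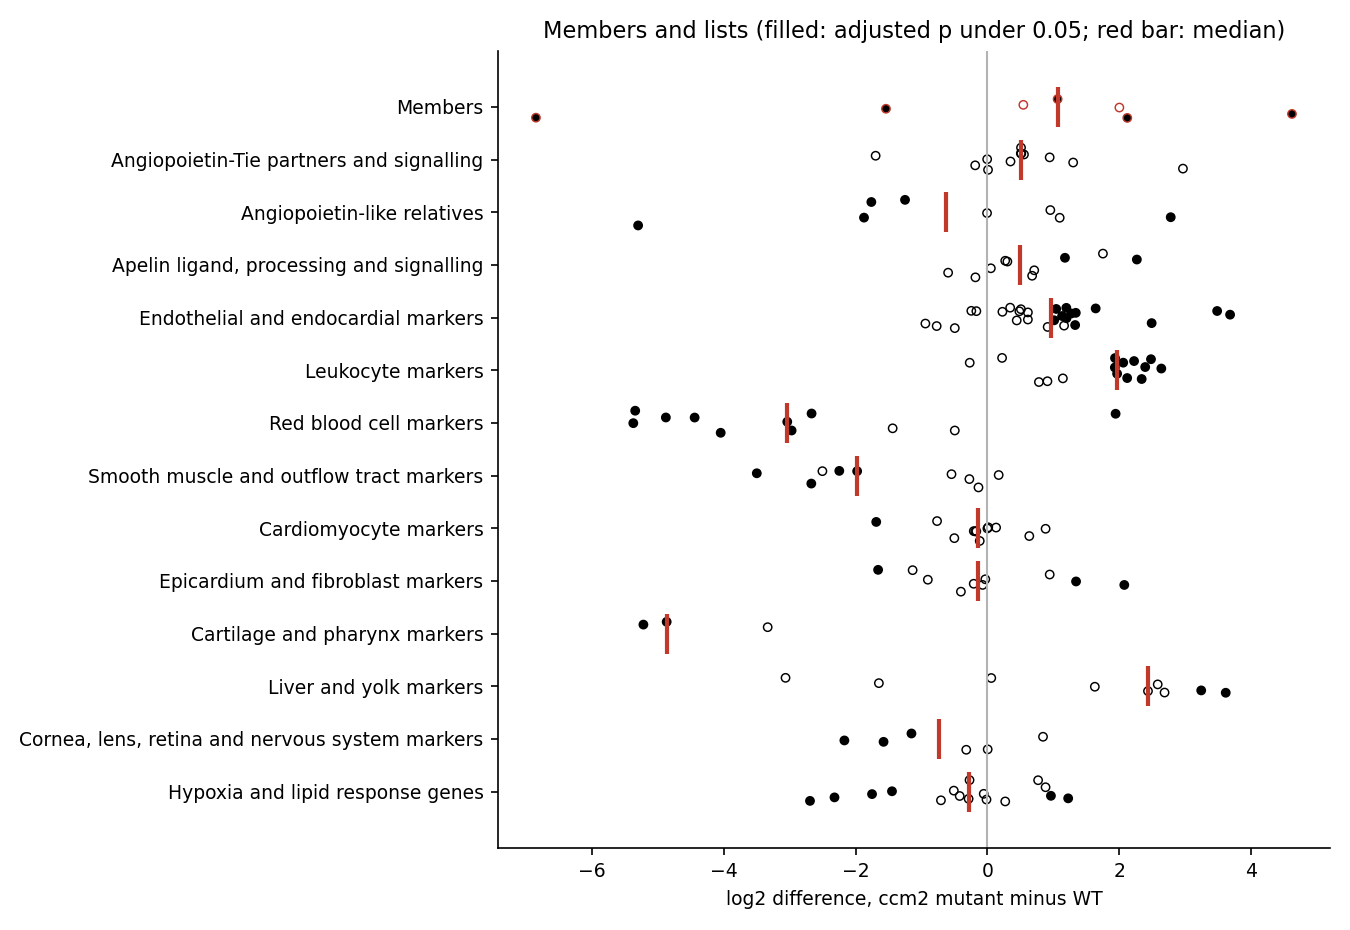
Difference between ccm2 mutant and WT hearts on the log2 scale for the 7 members and for each tested gene of the 13 other lists. Each point is a gene, filled where its adjusted p was under 0.05, and red bars are list medians. The members spread from -6.85 (angptl7) to 4.62 (angpt2b as measured, against WT signals not well above background), and endothelial markers have a median of 0.97.

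The calls of the members differed in how they held across processing settings. angpt1 and angptl7 passed under each of 12 alternatives that used all 4 arrays, and angpt2b under each of the 11 that tested it. angpt2b was well above background only on the mutant arrays, and the filter that asked for signal on all 4 arrays left it untested. Its passes rest on WT signals under the background limit and are no measure of how firm the call is. tek passed under 9 of 12 and apln under 8 of 12, and angptl4 under 2 of 12. aplnrb passed under 0 of 12.

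**Figure D5:**
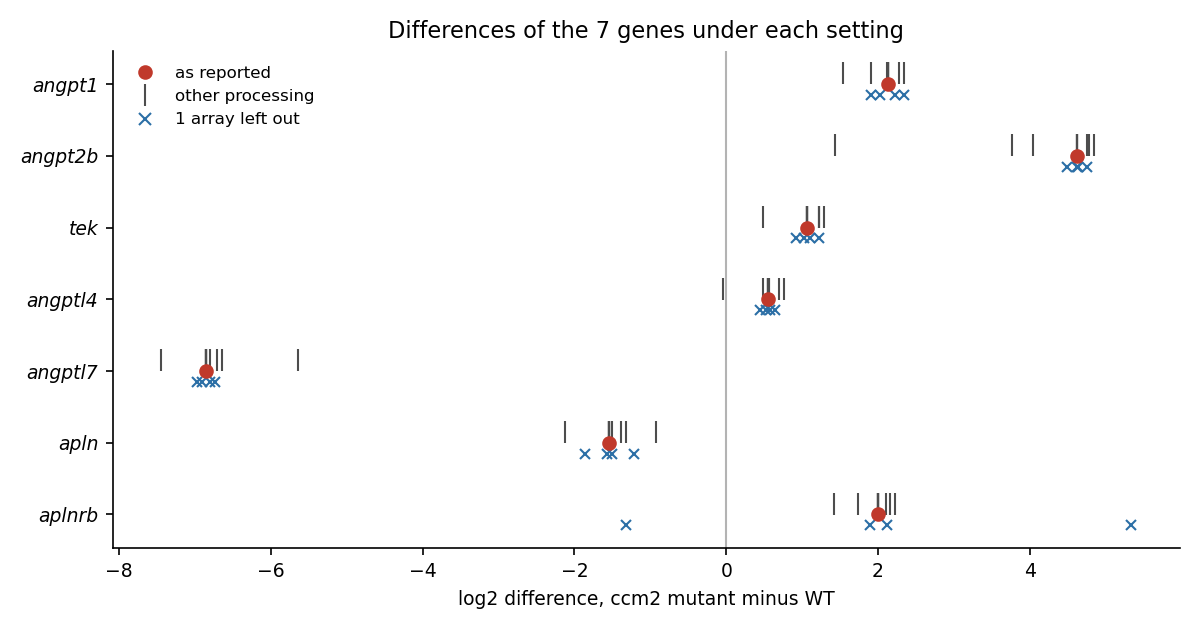
Difference between ccm2 mutant and WT hearts on the log2 scale for each member gene as reported (red), under other processing of all 4 arrays (grey ticks) and with 1 array left out (blue crosses). Only aplnrb has values on both sides of 0 when an array is left out, from -1.33 to 5.34.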

How the data were processed

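Per the file headers, the deposited intensity values were written by Agilent Feature Extraction 10.5.1.1 after background subtraction and detrending within an array, dim spots holding surrogates. Columns kept their own 75th percentiles, so the authors had not scaled the arrays to each other. The deposited raw median intensity served the aplnrb check and an alternative with normexp background correction, an offset of 50 and quantile normalization. The deposited quality statistics (other values) gave the number of features well above background, which were taken by rank.

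Symbols of the platform annotation were updated through RefSeq identifiers. Builds differ, so no coordinates are given. A probe was tested when its log2 signal exceeded the array's 40th percentile on 2 or more arrays. The test was limma 3.58.1 (R 4.3.3) with Benjamini-Hochberg adjustment. The fit was also run on simulated data that followed limma's own variance model, which cannot show whether that model holds for these arrays. A gene was counted through its brightest probe. A bound sets the brighter group's mean against, per array, the higher of the lowest signal well above background and the probe's own. Alternatives changed scaling, background, filters, a floor, variance model, probe averaging, threshold, replicate block and left-out arrays. The text names all members and, of each list, up to 3 passing genes with the largest rise and 3 with the largest fall or, with none passing, the 2 smallest p. Members and lists were chosen with earlier results of these data known. Figures used matplotlib 3.10.9.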

Additional observations from a re-analysis of the deposited data

How the results depend on the processing

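The count of member genes called higher was 3 and that called lower 2. With 1 array left out the counts were 0 to 1 and 0 to 1, and both were 1 at a threshold of 0.01 (angpt2b and angptl7). The call of angpt2b rests on WT signals under the background limit at either threshold. The count called lower was 1 with median scaling, no scaling, no filter and the replicate block, apln being lost each time, and the cause was not tested. No other setting moved either count by over 1.5 times, a rule that passes a shift of 1 gene in the count called higher. That count was 2 with no filter, the filter at the 60th percentile, the replicate block and scaling on endothelial markers. It was 4 from raw median signal and with the trended variance model. The titles number the samples of both groups, but nothing says that a number marks a shared clutch; with the number as a replicate block 874 genes of the array passed, against 1975 without it, the members called were 2 higher and 1 lower (tek at adjusted p = 0.0811 and apln at 0.0755 did not pass), and same-numbered samples' deviations correlated at r = 0.07 over 26824 probes. All genes passing numbered 1118 with no filter, 3065 with the trended variance model and 3014 with scaling on endothelial markers, a setting added after seeing the data that shifted the median of all genes to -0.63.

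The difference in the ratio of angpt2b to angpt1 was 2.5 as measured and 2.63 with quantile normalization. It was 1.64 with angpt2b at the lower limit and 2.41 to 2.59 with 1 array left out. From raw median signal, with background correction, an offset that compresses dim probes and quantile normalization, this difference in the ratio was -0.47. That of angpt2b to tek (3.56 as measured) was 2.70 at the lower limit, 0.22 from raw median signal and 3.27 to 3.84 with 1 array left out. That of apln to aplnrb ranged from -6.90 to -0.18 with 1 array left out. Single genes reversed in 2 cases: angptl4 at -0.042 with scaling on endothelial markers, and aplnrb, at -1.33 to 5.34 with 1 array left out. The filter at the 60th percentile on all arrays left angpt2b untested, and ratios with angpt2a, tie1 or aplnra were not run.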
